A study of Mus musculus with 22 samples.

Results

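Met was the gene that split the mouse mammary allografts described here: 4 allografts grown from CRC cells carried at least 300 FPKM of Met (10B, 10C, 2 and 12, here Met-high) and 3 carried less (6C, 11C and 1, here Met-low). FPKM is the number of sequenced fragments scaled to transcript length and library size. These 7 libraries are all the CRC allografts among the 22 libraries of the series. The groups were chosen by the measured Met level and not by a label, so Met itself and the 5 genes around it (Tes, Cav2, Cav1, Capza2 and St7) are given as values without a test. What the other genes did between the 4 and the 3 libraries is the subject of the comparison, which describes how they went with the Met level and tests no treatment. Just inside the threshold lay allograft 10C at 309.6 FPKM, and just outside it lay allograft 1 at 139 FPKM.

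The series compared mammary cells cultured by conditional reprogramming (CRC) with a mammary-optimised culture (EpiC), and some were then grown as allografts in the mammary glands of nude hosts (NU (NCr)-Foxn1nu). The cells were C57Bl/6, the animals are labelled nulliparous females, and every genotype carried 1 mutant Trp53 allele (Trp53-/+) and MMTV-Cre. RNA came from homogenised glands, per the labels' protocols. The MMTV promoter is active mainly in mammary epithelium, so a conditional allele is recombined in those cells and not throughout the animal. Met-high allografts 10B and 10C carried 1 conditional Brca1 allele (Brca1fl11/WT, here Brca1het), and Met-high allografts 2 and 12 carried 2 (Brca1fl11/fl11, here Brca1hom). Among the Met-low allografts, 6C carried the inducible CYP19A1 (aromatase) transgene Tet-op-CYP19A1 with MMTV-rtTA, 11C was Brca1het and 1 was Brca1hom. Nude hosts lack mature T cells of thymic origin but keep macrophages, mast cells, fat and vessels, which an allograft library can therefore hold. The sources used here give no ages. Nor do the labels say whether allografts of a genotype came from separate hosts or cultures, so a p-value reflects only how these libraries scatter, and that scatter may be technical.

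Met is the receptor for hepatocyte growth factor (Hgf). Hgf is secreted by mesenchymal cells as an inactive chain and cut by serine proteases. The bound receptor recruits the adaptors Grb2 and Gab1, which pass the signal to the Ras-ERK and PI3-kinase routes and drive scattering, migration and branching of epithelial cells. In mice, Met lies on chromosome 6 among the caveolin genes, and amplification of this segment is known from mouse mammary tumours that lack Brca1 and p53.

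The FPKM sums of the 7 libraries ran from 479206 to 615719, and between 11391 and 11782 genes reached 1 FPKM in each. Sequencing depth is unknown, because the deposited values are not counts. Across genes, log2(FPKM + 1) correlated at 0.990 between allografts 2 and 12 and at 0.987 between 10B and 10C, the highest values among the 21 pairs, while allograft 1 correlated at 0.933 to 0.958 with the other 6. Epithelial identity was uneven. The keratin Krt8 stood at 227, 366, 257 and 202 FPKM in Met-high 10B, 10C, 2 and 12, against 17.6, 238 and 218 FPKM in Met-low 6C, 11C and 1. The epithelial adhesion gene Epcam stayed at 1.74 FPKM or less in all but allograft 1, where it reached 25.6, and the mesenchymal filament Vim stood at 1355 FPKM or more in all 7 libraries.

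Within the neighbourhood, 4 of the 6 genes, Tes, Cav2, Cav1 and Met, were higher in every Met-high library than in any Met-low library. Met stood at 443, 309.6, 765 and 637 FPKM in Met-high 10B, 10C, 2 and 12, against 24.3, 45.4 and 139 FPKM in Met-low 6C, 11C and 1. Tes, which encodes the focal adhesion protein testin, stood at 2033, 1540.3, 3154 and 2397 FPKM in the Met-high libraries, against 17.8, 115 and 179 FPKM in the Met-low ones. The caveolin gene Cav1, whose product builds the membrane pits called caveolae, stood at 2333, 1872, 2736 and 2797 FPKM, against 181, 509 and 144 FPKM. The genes on the other side of Met went another way in allograft 2. Capza2, an actin capping protein, stood at 2398, 1596, 137 and 2292 FPKM in 10B, 10C, 2 and 12, against 183, 167 and 259 FPKM in 6C, 11C and 1. St7 likewise stood at 12.2 FPKM in allograft 2, below all 3 Met-low libraries (16.3 to 26.2 FPKM), and at 110.5 to 200 FPKM in the other 3 Met-high libraries. Allograft 2 was thus as low as the Met-low group in the genes beyond Met while it held the highest Met and Tes of the 7.

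**Figure D1:**
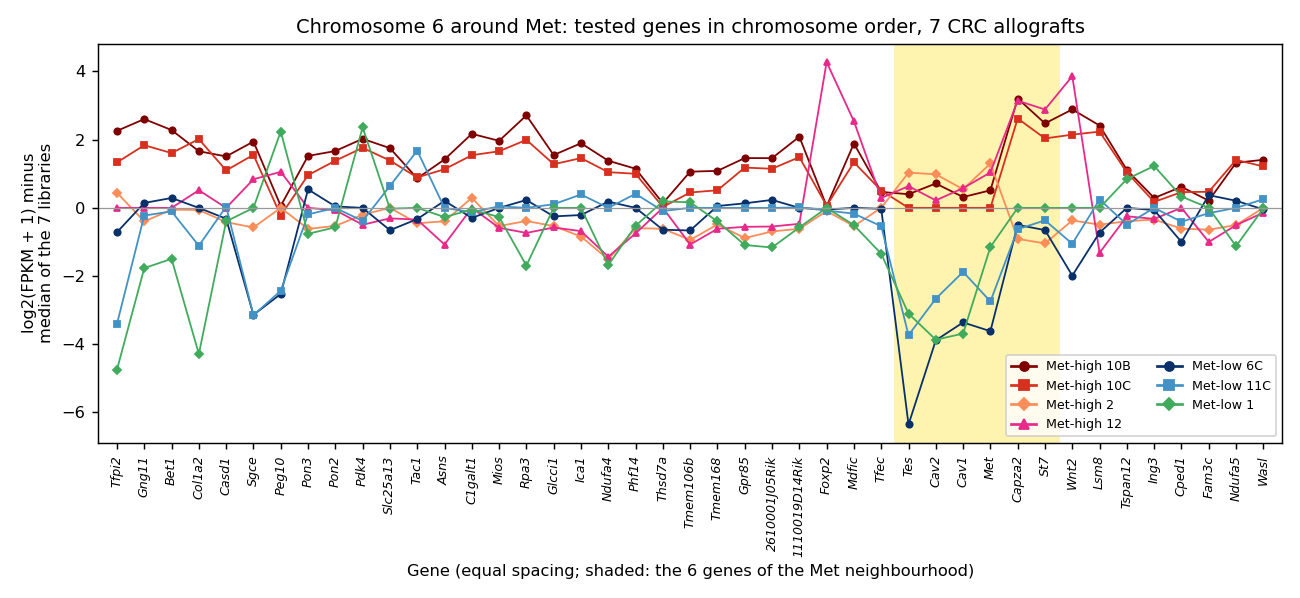
Tested genes of chromosome 6 around Met in chromosome order, with log2(FPKM + 1) minus the median of the 7 libraries on the vertical axis and a line for each CRC allograft. Lines of 10B and 10C run above the others along most of the stretch, and allograft 2 leaves the Met-high lines after Met, with Capza2 at 137 FPKM.

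Most of the stretch of chromosome 6 beyond the neighbourhood separated 10B and 10C from the rest rather than Met-high from Met-low. Gene order was taken from RefSeq (GRCm38.p6), since the files, made on mm9, list no positions. From Tfpi2 to Wasl, borders chosen after values were seen, 37 genes outside the neighbourhood were tested, and 10B and 10C both lay above the other 5 libraries in 28 of them (75.7%), against 6.45% of all tested genes. Lsm8, an RNA-binding splicing factor subunit, stood at 370 and 327 FPKM in 10B and 10C and at 48.5 and 26.9 FPKM in 2 and 12, against 41.2 to 81.4 FPKM in the Met-low libraries. Only Tfpi2 and C1galt1 of the 37 (5.41%) did not overlap between Met-high and Met-low with a log2 difference of at least 1. A list of flanking genes had 12 members tested, none stood apart, and the median log2 difference was 0.55. Wnt2, a secreted Wnt ligand, stood at 31.9, 18.7, 2.45 and 63.7 FPKM in 10B, 10C, 2 and 12, against 0.122, 1.14 and 3.45 FPKM in 6C, 11C and 1. Allograft 2 overlapped the Met-low libraries in Wnt2, as it did in Capza2. Allograft 12 was the highest of the 7 in Wnt2 and also in Mdfic and Foxp2, on the Tes side of the neighbourhood. Mdfic stood at 131, 89.5, 23.7 and 207 FPKM in 10B, 10C, 2 and 12, against 34.8, 30.9 and 24.2 FPKM. Foxp2 stood at 19.8 FPKM in 12 and at 0.120 FPKM or less in every other library.

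Outside the neighbourhood, 11902 genes had a mean of at least 1 FPKM and were tested with limma on log2(FPKM + 1). At an adjusted p under 0.05, 9 were called higher in Met-high (0.0756% of those tested) and 1 was called lower (0.0084%). Without adjustment, 470 genes were higher and 371 lower at p under 0.05. The calls were fragile: without 10B, without 10C or without allograft 1 none remained, and 2 remained, of 2 calls, without allograft 12. With genotype in the model, in which 6C no longer informs the comparison, all 10 were among 102 calls. Genes are also described as standing apart where the 4 and the 3 libraries did not overlap and the mean of log2(FPKM + 1) differed by at least 1. By that description 175 genes were higher in Met-high (1.47%) and 76 were lower (0.639%), and every count of list members below is to be read beside these shares. The balance depended on 6C: in the Brca1het and Brca1hom libraries alone 347 stood apart as higher and 361 as lower, and with genotype as a term 50 were called higher and 52 lower. The median log2 difference of all genes tested was -0.0020, with quartiles at -0.24 and 0.24.

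The genes with the largest differences included the proteases that mast cells store in their granules. Mcpt2, a mast cell chymase, stood at 26.3, 21.2, 11.4 and 47.0 FPKM in Met-high 10B, 10C, 2 and 12, against 0.067, 0.493 and 0 FPKM in Met-low 6C, 11C and 1. It was called higher, with a log2 difference of 4.39 (SE 0.42, limma adjusted p = 0.0170). The mast cell tryptase gene Tpsab1 stood at 18.5, 38.2, 14.3 and 49.98 FPKM, against 0.290, 2.59 and 1.31 FPKM (log2 3.66, SE 0.49, limma adjusted p = 0.0519). Every Met-high library was above every Met-low one, although the adjusted p missed the threshold. Its paralogue Tpsb2 stood at 10.7, 23.4, 7.90 and 29.3 FPKM, against 0.349, 1.49 and 0.227 FPKM. The pair is nearly identical in sequence, so how the authors' quantification divided fragments between them is uncertain, and the same holds within the chymase family. Cpa3, the mast cell carboxypeptidase, stood at 6.39, 7.94, 3.10 and 13.7 FPKM, against 0.310, 0.493 and 0.179 FPKM. Mcpt1, Mcpt4 and Cma1, further chymases, did not overlap between the groups either, at 1.55 to 19.9 FPKM in Met-high and 0 to 0.948 FPKM in Met-low libraries.

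A list of 19 mast cell genes, put together after these values were seen, had 13 genes tested. Members near 0 FPKM in the Met-low libraries, such as Mcpt2, passed the filter only through their Met-high values. The counts below thus describe members selected in part for being high there. Of these, 7 stood apart as higher, all of them proteases, none stood apart as lower, and the median log2 difference was 1.60. That median was 4.004 with a pseudocount of 0.1 and 0.30 without a filter on low values. The summed FPKM of the list was 92.6, 133, 63.8 and 201 in Met-high 10B, 10C, 2 and 12, against 27.9, 26.02 and 14.0 in Met-low 6C, 11C and 1. The 6 other tested genes of the list overlapped between the groups, 3 with a positive and 3 with a negative log2 difference. Kit, the receptor for stem cell factor and also a luminal epithelial gene, stood at 0.636 to 1.36 FPKM in Met-high and 1.06 to 1.84 FPKM in Met-low libraries. Gata2, a transcription factor of mast cells and other blood lineages, stood at 2.76 to 4.80 FPKM against 3.52 to 5.69 FPKM. The chains of the high-affinity IgE receptor in the list, Fcer1a and Ms4a2, were too low to enter the test. Fcer1a stood at 0.438 to 1.35 FPKM in Met-high and 0 to 0.0656 FPKM in Met-low libraries, without overlap, and Ms4a2 did not exceed 0.262 FPKM in any of the 7. In bulk tissue, more cells of a type and more RNA per cell cannot be told apart.

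Genes of fat cells were the other group in which most tested members stood apart. Here too, members near 0 FPKM in the Met-low libraries, such as Adipoq, passed the filter only through their Met-high values. The share of 6 among 9 is therefore a description of members selected in part for being high there. Of 9 tested adipocyte markers 6 stood apart as higher (Cfd, Car3, Retn, Adipoq, Cidec and Lpl), none as lower, and the median log2 difference was 2.24 (4.32 with a pseudocount of 0.1 and 0.65 without a filter). The summed FPKM of the list overlapped, at 179.7, 292, 84.1 and 259 in 10B, 10C, 2 and 12, against 147, 159 and 31.0 in 6C, 11C and 1. Car3, a carbonic anhydrase abundant in fat and muscle, stood at 24.1, 43.5, 13.0 and 40.6 FPKM in 10B, 10C, 2 and 12, against 0.605, 2.18 and 1.40 FPKM in 6C, 11C and 1. It was called higher (log2 3.62, SE 0.43, limma adjusted p = 0.0351). Cfd, which encodes adipsin, stood at 14.1, 83.8, 4.53 and 62.8 FPKM, against 0.641, 0.897 and 0.154 FPKM (log2 4.08, limma adjusted p = 0.191). In both genes 10C and 12 were the highest and 2 the lowest of the Met-high libraries. The same libraries were highest and lowest in the mast cell sum. The hormone gene Adipoq stood at 2.42 to 8.40 FPKM in Met-high and 0.043 to 0.251 FPKM in Met-low libraries. The fatty acid binding protein Fabp4, also made by capillary endothelium and macrophages, overlapped, at 54.0 to 119 FPKM in Met-high and 21.5 to 150 FPKM in Met-low libraries, and so did Pparg and Lipe. The defining lipid droplet gene Plin1 was at 0.208 to 0.652 FPKM in Met-high libraries and at 0.0136 FPKM or less in Met-low ones, too low to enter the test.

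Muscle genes were highest in single libraries on both sides of the split. All 15 skeletal muscle markers had a positive log2 difference (median 1.35), but none stood apart. Their summed FPKM was 94.6, 769, 155 and 101 in 10B, 10C, 2 and 12, against 18.2, 66.9 and 253 in 6C, 11C and 1, so allograft 10C was far above the rest and allograft 1 exceeded 3 of the 4 Met-high libraries. The part that fat, muscle and mast cells of the host had in the differences above was not tested. The CRC and the EpiC cultures, which had not been grown in hosts, each had 1 library for CYP19A1, Brca1het and Brca1hom. In the CRC cultures summed FPKM was 83.7 to 169 for adipocyte and 51.6 to 290 for muscle markers. The mast cell sum was 5.34 to 7.25 there. In the EpiC cultures these sums were 134 to 487, 31.4 to 75.4 and 7.91 to 16.4. Car3 stood at 7.46 to 26.1 FPKM in the CRC cultures and Adipoq at 1.11 to 4.17 FPKM. Markers of macrophages, endothelium, lymphocytes and erythroid cells had medians of -0.21, -0.14, -0.38 and -0.58, and none of their 18, 12, 5 and 4 tested genes stood apart.

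**Figure D2:**
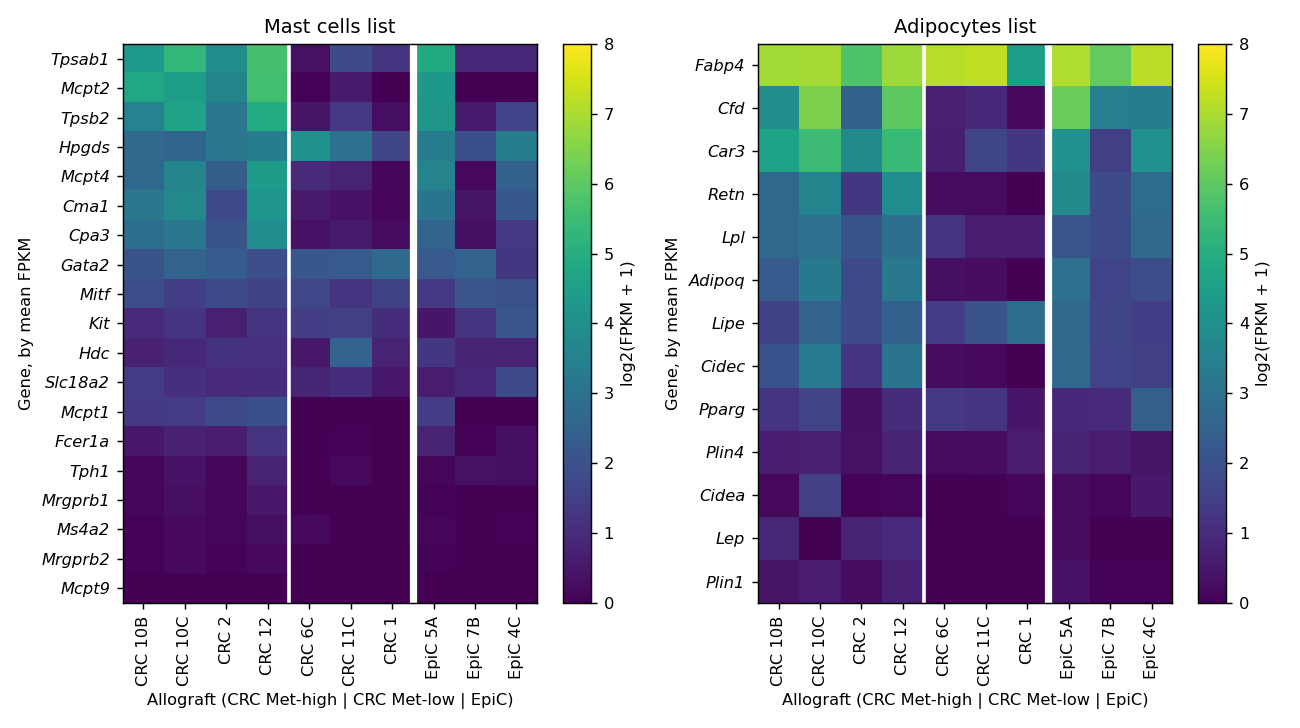
Heat maps of the mast cell list (left) and the adipocyte list (right), with genes in rows by mean FPKM, allografts in columns and log2(FPKM + 1) as colour; white bars separate Met-high CRC, Met-low CRC and EpiC allografts. The proteases at the top left are bright in the 4 Met-high libraries and in EpiC 5A, where Mcpt2 reached 18.1 FPKM.

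Of the 9 called genes, 7 belong to no mast cell or fat list. H19, a maternally expressed imprinted non-coding RNA of growing tissue, stood at 176, 234, 275 and 389 FPKM in Met-high 10B, 10C, 2 and 12, against 39.8, 35.1 and 15.3 FPKM in Met-low 6C, 11C and 1 (log2 3.16, SE 0.39, limma adjusted p = 0.0351). Sapcd1 stood at 13.9, 19.9, 20.5 and 10.5 FPKM, against 0.883, 0.949 and 0.186 FPKM (log2 3.35, SE 0.30, limma adjusted p = 0.0170). In both genes the lowest Met-high library was over 4 times the highest Met-low library. Eno3, the muscle form of the glycolytic enzyme enolase, stood at 45.8, 59.6, 56.5 and 43.8 FPKM, against 10.4, 15.4 and 15.0 FPKM (log2 1.85, SE 0.23, limma adjusted p = 0.0351). All 4 Met-high libraries lay above all 3 Met-low ones. Nefl, the light chain of neurofilaments, averaged 7.48 ± 1.95 FPKM in Met-high (SD, n = 4) and 0.693 ± 0.503 in Met-low (n = 3, limma adjusted p = 0.0364). Kcnh2, a voltage-gated potassium channel, averaged 5.90 ± 1.72 FPKM against 0.325 ± 0.239 FPKM. Greb1, an oestrogen-responsive gene in human breast cancer cells, averaged 4.13 ± 0.445 FPKM against 0.355 ± 0.322 FPKM, and Gm266 averaged 2.67 ± 0.396 against 0.0609 ± 0.0548 FPKM. These 3 were also called (limma adjusted p = 0.0351 each), at levels where the log2(FPKM + 1) scale understates the fold. Sapcd1, Nefl, Kcnh2, Greb1 and Gm266 averaged under 1 FPKM in Met-low libraries and passed the filter only through their Met-high values. Their calls thus concern genes selected in part for being high there. Without the filter on low values 0 genes were called.

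Other genes lay just short of the threshold. Fbln1, a fibulin of the extracellular matrix, averaged 16.9 ± 6.55 FPKM in Met-high (SD, n = 4) and 3.31 ± 0.416 FPKM in Met-low libraries (n = 3, limma adjusted p = 0.0589). Chrna1, a subunit of the muscle acetylcholine receptor, averaged 6.78 ± 2.43 FPKM against 1.06 ± 0.301 FPKM (limma adjusted p = 0.0620).

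**Figure D3:**
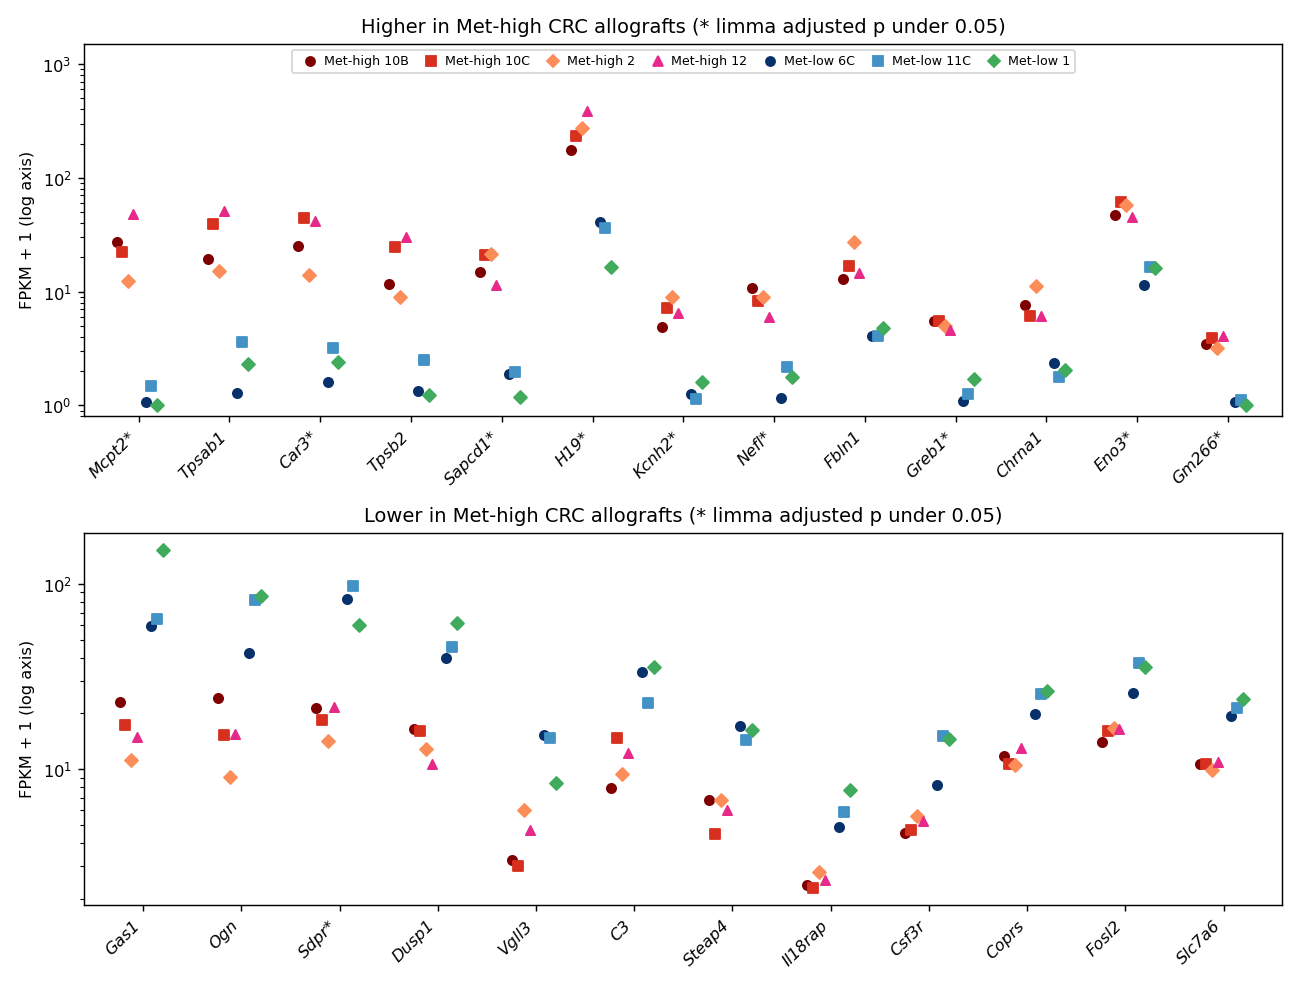
FPKM + 1 on a log axis for the called genes and the genes next in rank, higher in Met-high above and lower in Met-high below, with the 4 Met-high libraries left and the 3 Met-low libraries right of each tick; a star marks a limma adjusted p under 0.05. In every gene shown the 2 sets of points do not overlap, which is how they were picked, with Mcpt2 widest at 11.4 FPKM or more against 0.493 or less.

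Sdpr was the only gene called lower. It encodes cavin-2, a coat protein of the caveolae that Cav1 builds, and it stood at 20.4, 17.5, 13.1 and 20.7 FPKM in Met-high 10B, 10C, 2 and 12, against 81.5, 96.3 and 58.8 FPKM in Met-low 6C, 11C and 1 (log2 -2.07, SE 0.26, limma adjusted p = 0.0351). It was thus lower in the libraries where Cav1 was higher. Ptrf (cavin-1) and Prkcdbp (cavin-3), chosen after their values were seen, overlapped between the groups. Ptrf stood at 98.7, 121, 96.3 and 130.3 FPKM in the Met-high libraries, against 97.2, 207 and 169 FPKM in the Met-low ones (log2 -0.44, limma adjusted p = 0.820). Prkcdbp stood at 87.6 to 171 FPKM in Met-high and 67.2 to 142 FPKM in Met-low libraries.

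The genes next in rank among the lower ones missed the threshold. Dusp1, a phosphatase that inactivates MAP kinases, stood at 15.5, 15.1, 11.9 and 9.68 FPKM in 10B, 10C, 2 and 12, against 38.9, 44.6 and 60.8 FPKM in 6C, 11C and 1 (log2 -1.80, SE 0.25, limma adjusted p = 0.0553). Gas1, a membrane protein that restrains growth and binds hedgehog, averaged 15.6 ± 4.93 FPKM in Met-high (SD, n = 4) and 91.1 ± 52.3 FPKM in Met-low (n = 3, limma adjusted p = 0.0790). Steap4, a metalloreductase, averaged 5.03 ± 1.11 FPKM against 14.9 ± 1.38 FPKM (limma adjusted p = 0.0746). The matrix proteoglycan Ogn averaged 15.0 ± 6.29 FPKM against 68.9 ± 23.98 FPKM. The AP-1 subunit Fosl2, the complement component C3, the neutrophil growth factor receptor Csf3r, the interleukin 18 receptor chain Il18rap, the TEAD cofactor Vgll3, the amino acid transporter Slc7a6 and Coprs did not overlap either, at log2 differences from -1.61 to -1.04 and limma adjusted p from 0.114 to 0.184. Il1rl1, the interleukin 33 receptor, had a larger difference with more spread: 36.5, 28.8, 12.5 and 102 FPKM in the Met-high libraries, against 157, 453 and 202 FPKM in the Met-low ones (log2 -2.79, limma adjusted p = 0.240). It is a receptor of mast cells among others and was chosen after its values were seen, so the receptor and the proteases lay in opposite directions.

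The genes through which Met is known to signal showed little difference. Hgf itself stood at 10.2, 7.73, 6.38 and 12.1 FPKM in Met-high 10B, 10C, 2 and 12, against 12.1, 13.4 and 10.3 FPKM in Met-low 6C, 11C and 1 (log2 -0.38, SE 0.25, limma adjusted p = 0.819). The 6 tested genes of the Hgf list, which holds the ligand, its activating proteases and their inhibitors, had a median of -0.04 and none stood apart. Plau, the urokinase, had the smallest p among them, at 131, 127, 148 and 81.8 FPKM against 93.0, 51.0 and 11.7 FPKM (limma adjusted p = 0.588). Of 29 adaptors and signal transducers none was called and none stood apart, with a median of -0.01 and 14 of 29 above 0. Grb2 averaged 59.4 ± 10.7 FPKM in Met-high (SD, n = 4) and 59.4 ± 8.53 FPKM in Met-low libraries (n = 3, limma adjusted p = 0.998). Gab1 averaged 5.26 ± 0.534 FPKM against 10.3 ± 5.65 FPKM (limma adjusted p = 0.670), with allograft 1 at 16.7 FPKM. An adjusted p above the threshold does not show that these genes were equal, and transcript levels say nothing of receptor phosphorylation, which was not measured here.

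Among 21 co-receptors and negative regulators of Met, 1 stood apart in each direction and the median was 0.03. Socs1, a suppressor of cytokine signalling, stood at 3.31 to 7.43 FPKM in Met-high and 0.915 to 2.23 FPKM in Met-low libraries. Dcn, the proteoglycan decorin that can bind and antagonise Met, stood at 558, 316, 463 and 454 FPKM in 10B, 10C, 2 and 12, against 1736, 981 and 733 FPKM in 6C, 11C and 1 (log2 -1.29, SE 0.35, limma adjusted p = 0.337). Of 26 tested ERK output genes, the transcripts that follow ERK activity, 1 stood apart as higher (Dusp4, at 7.40 to 14.2 FPKM against 1.07 to 5.89 FPKM), the median was 0.23, and none was called. Fosl1 stood at 93.5, 149, 146 and 136 FPKM against 26.3, 107 and 38.8 FPKM, overlapping through 11C. Dusp6 stood at 33.8 to 61.0 FPKM in Met-high and 37.8 to 86.3 FPKM in Met-low libraries. The AP-1 subunit Fos stood at 5.07 to 6.84 FPKM in Met-high and 7.19 to 18.5 FPKM in Met-low libraries (limma adjusted p = 0.574). Invasion and matrix protease genes had 1 of 22 standing apart, Serpine2, an inhibitor of urokinase and thrombin, at 41.7 to 51.6 FPKM against 12.6 to 22.5 FPKM (log2 1.28, SE 0.24, limma adjusted p = 0.139).

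Other receptors and growth factors showed single members apart. Of 28 tested receptor tyrosine kinases other than Met, only Ret stood apart, at 3.02, 6.54, 0.697 and 0.724 FPKM in 10B, 10C, 2 and 12, against 0.181, 0.226 and 0.0843 FPKM in 6C, 11C and 1. Ret too passed the filter only through its Met-high values. Among 19 growth factor ligands 2 stood apart in each direction. Pdgfa stood at 43.3, 64.2, 89.7 and 56.9 FPKM in the Met-high libraries, against 23.3, 32.0 and 11.2 FPKM in the Met-low ones (log2 1.54, SE 0.38, limma adjusted p = 0.276). Vegfa, the main angiogenic factor, stood at 26.1 to 45.7 FPKM against 6.65 to 25.1 FPKM, the gap between 12 and 11C being small. In the other direction Nrg1, a ligand of ErbB receptors, stood at 1.48 to 3.49 FPKM in Met-high and 4.48 to 11.2 FPKM in Met-low libraries, and the lymphangiogenic factor Figf at 2.74 to 7.04 FPKM against 11.3 to 14.9 FPKM. Brca1 and Trp53, the altered genes of these mice, overlapped between the groups. Brca1 averaged 3.27 ± 0.14 FPKM in Met-high (SD, n = 4) and 3.68 ± 1.45 FPKM in Met-low (n = 3), and Trp53 averaged 12.5 ± 3.80 FPKM against 22.4 ± 9.07 FPKM (limma adjusted p = 0.956 and 0.700). A gene-level value does not show whether the conditional part of Brca1 was lost.

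Matrix and mesenchymal genes differed gene by gene. Fibroblast markers split, with 2 of 18 apart as higher (Fbln1 and Mfap5) and 2 as lower (Dcn and Ogn), and their summed FPKM overlapped at 1964 to 3331 in Met-high and 2170.2 to 3859 in Met-low libraries. Of 20 collagen genes 2 stood apart, both higher: Col7a1, the anchoring fibril collagen, at 5.09 to 14.4 FPKM against 1.26 to 4.36 FPKM, and Col11a1 at 4.58 to 13.9 FPKM against 0.0553 to 3.87 FPKM. Of 20 mesenchymal transition genes 2 stood apart, both higher and both highest in 10B and 10C. N-cadherin (Cdh2) stood at 17.0, 16.8, 4.03 and 4.80 FPKM in 10B, 10C, 2 and 12, against 1.16, 3.30 and 0.392 FPKM in 6C, 11C and 1, and the transcription factor Snai1 stood at 108, 176, 30.6 and 24.2 FPKM, against 14.4, 22.5 and 13.2 FPKM. Of 11 basal and myoepithelial genes, Tagln (transgelin) alone stood apart, at 136 to 265 FPKM against 3.36 to 108 FPKM. Smooth muscle actin, Acta2, overlapped because allografts 2 (135 FPKM) and 12 (87.3 FPKM) lay below 11C (157 FPKM). None of the 22 mitosis genes and none of the 28 replication genes stood apart, with medians of 0.18 and -0.05. Epithelial adhesion genes had a median of -0.47 with none of 15 apart, and without allograft 1 the median was 0.059.

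**Figure D4:**
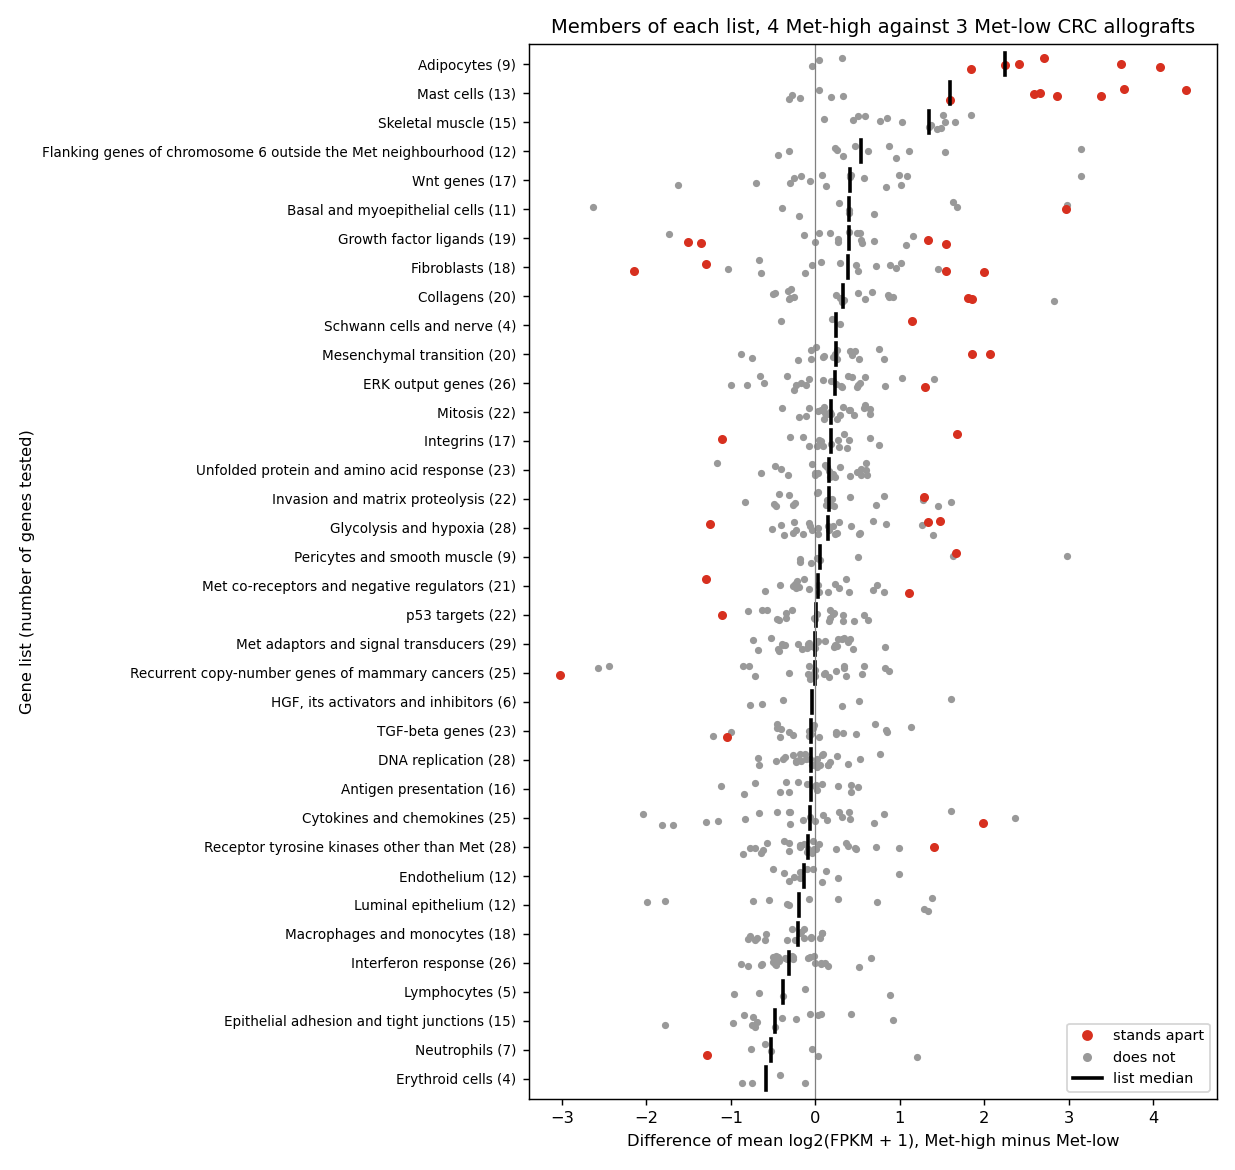
Difference of mean log2(FPKM + 1), Met-high minus Met-low, for the tested members of each gene list, ordered by the list median (black bar), with members that stand apart in red. In the adipocyte list 6 of 9 tested members are red, with a median of 2.24, while adaptors and signal transducers of Met centre on -0.01. The mast cell list, with 7 of 13 red and a median of 1.60, was put together after values were seen. Its place among the lists is therefore no result.

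Neighbouring genes on chromosomes 9 and 8 were high in Met-low libraries, on chromosome 9 in only 2 of the 3. Birc2, an inhibitor of apoptosis, was the only gene apart among 25 recurrent copy-number genes of mammary cancers, at 7.29, 5.41, 4.24 and 9.38 FPKM in 10B, 10C, 2 and 12, against 10.2, 203 and 90.5 FPKM in 6C, 11C and 1 (log2 -3.02, limma adjusted p = 0.362). Allograft 6C was close to the Met-high libraries. Yap1, the Hippo pathway coactivator beside it, stood at 24.05, 23.6, 28.1 and 50.3 FPKM against 21.0, 1075 and 261 FPKM, and Birc3 at 8.21, 7.25, 11.4 and 16.4 FPKM against 11.6, 226 and 81.4 FPKM. This segment is known as an amplified one in mouse mammary and liver tumours. From Dync2h1 to Arhgap42, 7 of 12 tested genes had 11C and 1 both above the other 5 libraries (58.3%, against 11.6% of all tested genes), and from Alkbh8 to Arhgap42 11C was above the other 6 in 19 of 22 (86.4%, against 11.6%). Thus 2 of the 3 Met-low libraries, and none of the 4 Met-high ones, carried the high values of Yap1 and its neighbours. Of the 12 genes from Dync2h1 to Arhgap42, only Birc2 stood apart as lower in Met-high (8.33%, against 0.639% of all tested genes). DNA copy number was not measured here.

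Chromosome 8 held 12 of the 76 lower genes, 1.98% of its 607 tested genes, against 0.639% of all. Of these, 5 lay between Alg11 and Rab11fip1: Smim19, Kat6a, Ash2l, Hgsnat and Rab11fip1. Along that stretch, 22 of 39 tested genes were higher in all 3 Met-low than in all 4 Met-high libraries by any amount (56.4%, against 4.07% of all tested genes), and 6C was the highest of the 7 in 25 of 39 (64.1%, against 25.1%). Ash2l, a subunit of histone methyltransferase complexes, stood at 27.2, 22.3, 25.98 and 25.1 FPKM in 10B, 10C, 2 and 12, against 77.2, 34.8 and 57.7 FPKM in 6C, 11C and 1 (log2 -1.07, limma adjusted p = 0.329). Hgsnat, a lysosomal acetyltransferase, stood at 13.5 to 20.9 FPKM in Met-high and 22.0 to 66.3 FPKM in Met-low libraries. The stretches on both chromosomes were delimited after the values were seen. Chromosome 6 outside the neighbourhood held 10 of the 175 higher genes, 1.83% of 545, close to the 1.47% of all genes.

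**Figure D5:**
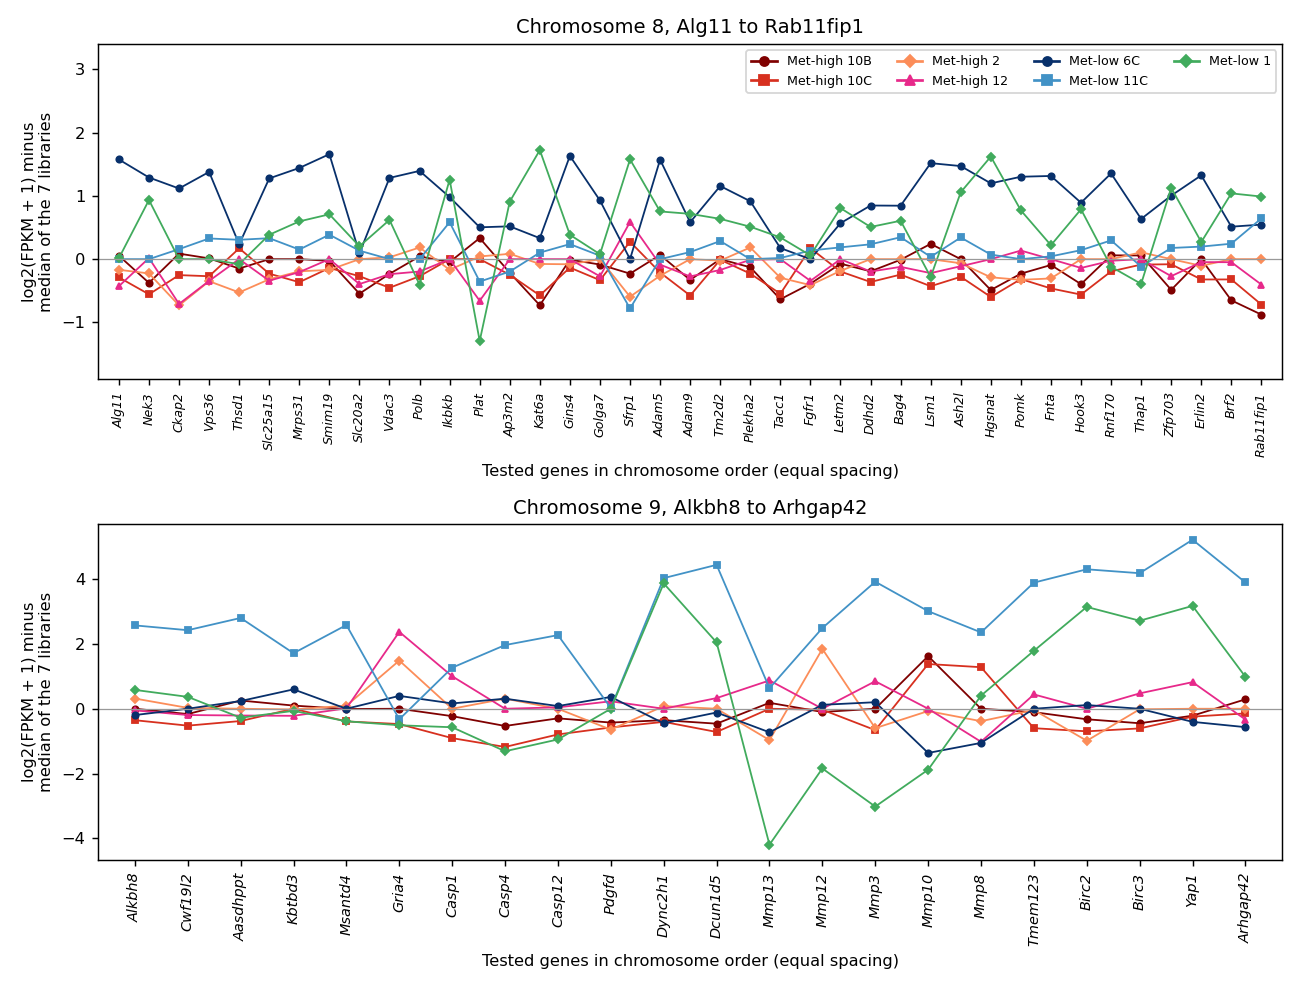
Tested genes in chromosome order on chromosome 8 (upper panel) and chromosome 9 (lower panel), with log2(FPKM + 1) minus the median of the 7 libraries and a line for each CRC allograft. On chromosome 8 the line of 6C runs above the others in 25 of 39 genes. On chromosome 9 the lines of 11C and 1 both lie high at Dync2h1 and Dcun1d5 and again from Tmem123 on, with Yap1 at 1075 FPKM in 11C.

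The 3 EpiC allografts, which the Met rule did not use, offer a further Met-rich library. EpiC allograft 5A (Brca1het) held 687 FPKM of Met, against 88.6 FPKM in 7B (CYP19A1) and 56.0 FPKM in 4C (Brca1het). It shared a different side of the neighbourhood: Capza2 stood at 1641 FPKM and St7 at 173 FPKM in 5A, against 149 and 143 FPKM, and 17.7 and 18.1 FPKM, in 7B and 4C, while Tes (55.3 FPKM) and Cav1 (61.2 FPKM) were not raised there. Of the 6 neighbourhood genes, Met alone was high in 5A and in all 4 Met-high CRC allografts. The comparison has 1 library against 2 and no test, so a gene is counted as higher in 5A where it lay above both 7B and 4C and at least 1 log2 unit over their mean. That held for 18.6% of all tested genes, and the opposite held for 14.2%. Of the 175 genes that stood apart as higher in Met-high CRC allografts, 86 (49.1%) were higher in 5A and 10 (5.71%) were lower. Of the 76 that stood apart as lower, 36 (47.4%) were lower in 5A and 4 (5.26%) were higher.

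Among the genes named above, the proteases were also high in 5A. Mcpt2 stood at 18.1 FPKM in 5A and at 0 FPKM in 7B and 4C, and Tpsab1 at 28.2 FPKM against 0.914 and 0.888 FPKM. The summed FPKM of the mast cell list was 107 in 5A, against 16.3 in 7B and 33.8 in 4C, and Il1rl1 was again at the other end, at 11.2 FPKM against 438 and 450 FPKM. Eno3 stood at 182 FPKM in 5A, against 5.90 and 7.23 FPKM in 7B and 4C, and Nefl at 66.9 FPKM against 0.645 and 0.663 FPKM. Sapcd1 stood at 4.97 FPKM in 5A, against 0.146 and 0.302 FPKM. Car3, at 15.7 FPKM in 5A against 1.87 and 15.6 FPKM in 7B and 4C, and H19, at 94.6 FPKM against 4.87 and 84.5 FPKM, also counted as higher by this rule, although 4C was close to 5A in both. The called genes Kcnh2, Greb1 and Gm266 were at 0.189 FPKM or less in 5A. Sdpr stood at 54.6 FPKM in 5A, against 46.7 and 45.7 FPKM in 7B and 4C, while Dusp1, at 17.0 FPKM against 67.0 and 26.4 FPKM, and Gas1, at 17.4 FPKM against 321 and 51.2 FPKM, were lower there as in the Met-high CRC allografts. Skeletal muscle genes were low in all 3, with sums of 15.3 FPKM in 5A against 6.97 and 30.0 FPKM. Allograft 5A also had the largest FPKM sum of the 10 allografts (825216, against 482639 in 7B and 466441 in 4C), and the part of that sum in these values was not tested.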

How the data were processed

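Poly(A) RNA of mouse mammary cells and allografts was sequenced as paired ends, per the labels' protocols. The deposited FPKM values were made by the authors with FastQC, Trim Galore, TopHat and Cufflinks on mm9, per the submitters' processing notes; the sources used here give no versions, annotation or filters. The table of cultures and allografts, with 23993 genes, was normalised apart from the table of cancers, so all comparisons stayed within it. The 7 CRC allografts were split at 300 FPKM of Met. Differences were tested with limma 3.58.1 in R 4.3.3 (lmFit, eBayes with trend, 5 residual degrees of freedom) on log2(FPKM + 1). The 11908 genes averaging 1 FPKM or more entered, with Benjamini-Hochberg adjustment over all of them. The fit was tested on simulated data. FPKM carry no counts, so no counting interval can be given.

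The members, the 36 gene lists and the tests were chosen with earlier results of these data known, and the mast cell list was added after values were seen. Genes named are the neighbourhood, the called genes, up to 12 genes a direction that did not overlap, averaged 5 FPKM or more where higher and had the smallest p, up to 3 members of a list with the smallest p, and Hgf, Gab1, Grb2, Brca1 and Trp53; further genes are examples picked with values in view. A gene this rule names is not reported here. RefSeq (GRCm38.p6) gave a chromosome for 94.7% of tested genes and their order. The analysis was repeated with 0.1 as pseudocount, without the low-value filter, with it at 5 FPKM, with median-ratio rescaling, genotype as a term, Brca1het and Brca1hom libraries alone, Met as a continuous term, 10B and 10C averaged, and each library left out; averaging 2 and 12 as well was added after the data were seen.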

Additional observations from a re-analysis of the deposited data

Results flagged for a closer look

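Met in EpiC allograft 5A stood at 687 FPKM, a signal in a library outside the split, where the highest of the 6 cultures held 54.7 FPKM and the other EpiC allografts held 88.6 and 56.0 FPKM. It was above 3 of the 4 Met-high CRC allografts. Among 50 results tested within the Met-high group, 0 had a library far from the others by Dixon's criterion.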

How the results depend on the processing

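No paired analysis was possible because the Met-high and Met-low allografts share no replicate number. The 9 higher and 1 lower calls became 14 and 2 with a pseudocount of 0.1, 0 and 0 without a filter, with 10B and 10C averaged or with Met as a continuous term, and 2 and 0 with both pairs averaged. They became 50 and 52 with genotype as a term, 16 and 26 in Brca1het and Brca1hom libraries alone, and 2 were lower with the filter at 5 FPKM. Leaving out each library gave 0 to 16 higher and 0 to 26 lower calls. The 175 higher and 76 lower genes standing apart became 113 higher with that filter, 115 lower with a pseudocount of 0.1, and 347 and 361 in the Brca1 libraries alone. Leaving out each library gave 180 to 359 higher and 83 to 361 lower, in part because fewer libraries were left to overlap.

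List medians followed the treatment of low values. With a pseudocount of 0.1 they were 4.32 for adipocytes, 4.004 for mast cells and 1.03 for basal cells; without a filter they were 0.65, 0.30 and 0.089, and 0.10 for Wnt genes. With the filter at 5 FPKM they were 3.62, 3.12 and 1.63, with 0.31 for the Hgf list, 0.16 for p53 targets, -0.038 for lymphocytes and 1.07 for pericytes. With 10B and 10C averaged, Wnt genes were at 0.18 and mast cells at 2.13, and with both pairs averaged mast cells were at 2.73 and the Hgf list at -0.35. With genotype as a term, and in the Brca1 libraries alone, the Hgf list was at 0.076, receptor tyrosine kinases at -0.27, the unfolded protein response at 0.32 and lymphocytes at -0.76, and basal cells were at 0.89 with the term. The causes were not tested.

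With each library left out, medians ran from 1.32 to 2.15 for mast cells, 0.15 to 0.36 for Wnt genes, 0.28 to 0.72 for basal cells, 0.10 to 0.65 for collagens and 0.013 to 0.53 for growth factor ligands. They crossed 0 for the Hgf list (-0.52 to 0.27), Met adaptors (-0.089 to 0.070), p53 targets (-0.030 to 0.085), the unfolded protein response (-0.043 to 0.32), lymphocytes (-0.76 to 0.21), neutrophils (-1.16 to 0.67), erythroid cells (-1.04 to 0.0095), epithelial adhesion (-0.86 to 0.059) and luminal epithelium (-0.49 to 1.12), and ran from -0.30 to -0.0038 for receptor tyrosine kinases. The log2 differences crossed 0 for Hbb-b1 (-0.97 to 0.37), Grb2 (-0.13 to 0.091), Cdh5 (-0.80 to 0.027), Gzma (-1.67 to 0.15), Il2rb (-1.32 to 0.12) and Brca1 (-0.29 to 0.14), none of which was called.

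Among genes, no call changed sign. Grb2, near 0 throughout, was at 0.059 with genotype as a term and in the Brca1 libraries alone, at 0.067 with 10B and 10C averaged and at 0.021 with Met as a continuous term. Hbb-b1 was at 0.10 with 10B and 10C averaged, and Il2rb and Brca1 were at 0.00066 and 0.029 with Met as a continuous term. Depth is unknown, so the limit it sets cannot be given.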

Other observations

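The primary cancers of the separately normalised second table, which enter no comparison here, differed in the same genes. All 6 libraries of that table were Brca1het. Primary cancer 2 held 1818 FPKM of Met, 2997 of Tes and 2860.1 of Capza2, and primary cancer 1 held 19.1, 41.9 and 115 FPKM. The CRC culture grown from cancer 2 held 13.3 FPKM of Met and its EpiC culture 68.2, while the CRC culture grown from cancer 1 held 156 FPKM and its EpiC culture 24.7. High Met was therefore seen in 1 of 2 primary cancers and was not seen at that level in either culture grown from it. Mcpt2 was listed at 0 in all 6 libraries of that table, and Yap1 lay between 22.6 and 82.0 FPKM in them.

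Several genes with large differences belong to no list and were chosen after their values were seen. Stmn2, a tubulin-binding protein of neurons, stood at 16.7, 16.9, 109 and 104 FPKM in Met-high 10B, 10C, 2 and 12, against 5.70, 1.92 and 0.515 FPKM in Met-low 6C, 11C and 1, and at 369 FPKM in EpiC 5A, against 0.641 and 203 FPKM in EpiC 7B and 4C. Msln, mesothelin, stood at 13.6, 12.3, 2.25 and 32.2 FPKM in the Met-high libraries, against 61.6, 85.7 and 256 FPKM in the Met-low ones, while EpiC 5A held 218 FPKM, against 69.3 and 13.3 FPKM in EpiC 7B and 4C. Serpinf1, an anti-angiogenic serpin, stood at 164, 152, 128 and 363 FPKM in Met-high, against 33.9, 86.6 and 13.5 FPKM in Met-low libraries.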
